A study of Homo sapiens with 5 samples.

Results

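The cleavage and polyadenylation specificity factor (CPSF) genes are described here by where their own mRNAs end and how many reads they gave. The 8 genes were CPSF1, CPSF2, CPSF3, CPSF4, WDR33, FIP1L1, SYMPK and RBBP6, chosen by name among the 31173 genes of the table. They held 230 of its 272248 distinct poly(A) sites, and 190 of these 230 had at least 1 read. The series measured poly(A) site use in HEK293T cells, a human embryonic kidney line. It compared cells edited with CRISPR/Cas9 to lack a subunit of cleavage factor Im (CFIm) with the line they were made from. There were 2 CFIm68 knockout (KO) lines (gene CPSF6), 2 CFIm59 KO lines (gene CPSF7) and 1 wild type control library, and all were grown in the same medium. Each KO library came from a cell line of its own, so the p-values below measure the spread between lines of 1 genotype. With 1 library, the control had no replicate, and the fits took its spread to be that of the KO lines.

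CPSF reads the poly(A) signal of a pre-mRNA, AAUAAA or a close variant, and cuts the RNA a short way downstream, after which the tail is added. WDR33 and CPSF4 (CPSF30) contact the signal, CPSF1 (CPSF160) is their scaffold, and FIP1L1 brings in poly(A) polymerase. CPSF3 (CPSF73) is the endonuclease, CPSF2 (CPSF100) its inactive relative, and SYMPK (symplekin) the scaffold of that cleavage part. RBBP6 is a RING finger protein that activates cleavage. CFIm binds UGUA elements upstream of many sites through CFIm25 (gene NUDT21) and contacts FIP1L1 through the arginine and serine rich domains of CFIm68 and CFIm59. Where an mRNA ends sets its 3′ UTR, or, for a site within the gene, which protein it encodes.

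RBBP6 and WDR33 had sites at the ends of annotated short and long transcripts, so some of the transcript ends that went with their sites are shown, with those of FIP1L1. They are 30 bases from the GENCODE v29 transcripts (GRCh38), 5′ to 3′ on the gene's strand, with AATAAA, the DNA spelling of the poly(A) signal, in capitals. A transcript end was matched to a site where the table named that transcript for the site and the ends kept the spacing of the sites within 25 nt.
RBBP6 ENST00000452655, chr16:24549372-24549401, plus strand: tttcttgcAATAAAaaatgtttggagtgta
RBBP6 ENST00000562683, chr16:24559756-24559785, plus strand: tgttttaatAATAAAataaataatgttgat
WDR33 ENST00000393006, chr2:127735388-127735417, minus strand: tctgaccttcaAATAAAacttattatgtat
FIP1L1 ENST00000306932, chr4:53459572-53459601, plus strand: taactttttttccaaAATAAAagagtgaat
FIP1L1 ENST00000337488, chr4:53459639-53459668, plus strand: ttcaaaAATAAAaagacagcaatgacttta
FIP1L1 ENST00000504094, chr4:53460832-53460861, plus strand: gacaagataaatatagtgtttcaacttctt

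Each stretch is the last 30 bases of its transcript, except those of RBBP6 ENST00000562683 and FIP1L1 ENST00000306932, whose signal lies higher and whose stretch stops 20 bases before the end. ENST00000452655 encodes the RBBP6 form of 118 amino acids and ENST00000319715 the form of 1792. The short form holds the N-terminal ubiquitin-like domain and is known to compete with full-length RBBP6 in 3′ processing. The WDR33 transcripts encode 257 amino acids (ENST00000393006) and 1336 (ENST00000322313). For FIP1L1, ENST00000306932 encodes 520 amino acids and ENST00000337488 encodes 594. The search on the transcript strand found AATAAA or ATTAAA in the last 50 bases of all ends shown but that of FIP1L1 ENST00000504094. Among 62910 protein-coding transcripts, 57.4% held 1 or both of these signals in that window and 46.3% held the first one. The CFIm element, TGTA in DNA spelling, occurred 4 times in the last 100 bases of RBBP6 ENST00000452655. It occurred 1 time each in those of RBBP6 ENST00000562683, WDR33 ENST00000393006, FIP1L1 ENST00000337488 and FIP1L1 ENST00000504094, and 0 times for FIP1L1 ENST00000306932. Of the 62910 transcripts, 45.7% held at least 1. Below, site positions are the hg19 positions of the table, a different build from these sequences.

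The CFIm68 KO libraries held 2727728 and 2078376 reads, the CFIm59 KO libraries 1673687 and 2585923, and the control 2924266. The knocked out gene CPSF6 gave 48.0 and 45.7 CPM (counts per library size after TMM scaling) in the CFIm68 KO lines, against 120 CPM in the control, a fall of the log2 level by 1.35 (adjusted p = 0.000512, edgeR quasi-likelihood F test, p adjusted by Benjamini and Hochberg's method). CPSF7 gave 68.4 and 55.5 CPM in the CFIm59 KO lines, against 59.8 CPM in the control, and reads at the 3′ end check an edit elsewhere in a gene only where it lowers the mRNA. Of 8 genes that mark HEK293 cells, 7 had reads in every library, and their summed level was 195 to 261 CPM. IRS4 was the exception, with 0 reads in both CFIm59 KO lines. Summed markers were 0.600 to 5.91 CPM for blood (5 genes), 9.01 to 18.2 CPM for fibroblasts (4 genes, COL1A2 at 0) and 9.77 to 56.4 CPM for epithelium (3 genes, KRT5 at 0). The high epithelial value was CFIm59 KO line 1 and came from EPCAM at 48.0 CPM. The liver genes ALB and APOA1 summed to 0 CPM in both CFIm68 KO lines, 0.600 and 4.14 CPM in the CFIm59 KO lines and 26.7 CPM in the control, where ALB gave 26.3 CPM, while APOA1 was highest in CFIm59 KO line 2 at 3.73 CPM. The part of these differences in the results below was not tested. Over the 5 libraries the CPSF genes had between 297 reads (CPSF4) and 939 reads (RBBP6), so single sites rest on few reads.

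Where at least 2 sites were well used, the pair of sites with most reads was compared, and a positive log2 value means more use of the upstream (proximal) site relative to the downstream (distal) one. WDR33, CPSF2, FIP1L1, SYMPK and RBBP6 had such a pair among the 5869 genes tested. Between the knockouts, 4 of these 5 genes used the proximal site more in CFIm68 KO than in CFIm59 KO cells, against 40.7% of all genes tested. In CFIm59 KO cells the ratio of the same 4 genes, WDR33, CPSF2, FIP1L1 and RBBP6, lay further toward the distal site than in the control. Of all genes, 5.38% did so. For RBBP6 the distal site itself gave 49.8 and 35.6 CPM in the CFIm59 KO lines and 43.2 CPM in the control. Its proximal site gave 4.20 and 3.73 CPM against 16.2 CPM. In CFIm68 KO cells 2 of the 5, WDR33 and CPSF2, used the proximal site more than the control did, where 25.3% of all genes did so. The median log2 change over the 5 genes was 3.15 between the knockouts (0.89 over all genes tested), -1.92 in CFIm59 KO against control (-0.34 over all) and 1.12 in CFIm68 KO against control (0.61 over all). The 3 comparisons share libraries and are not independent.

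**Figure D1:**
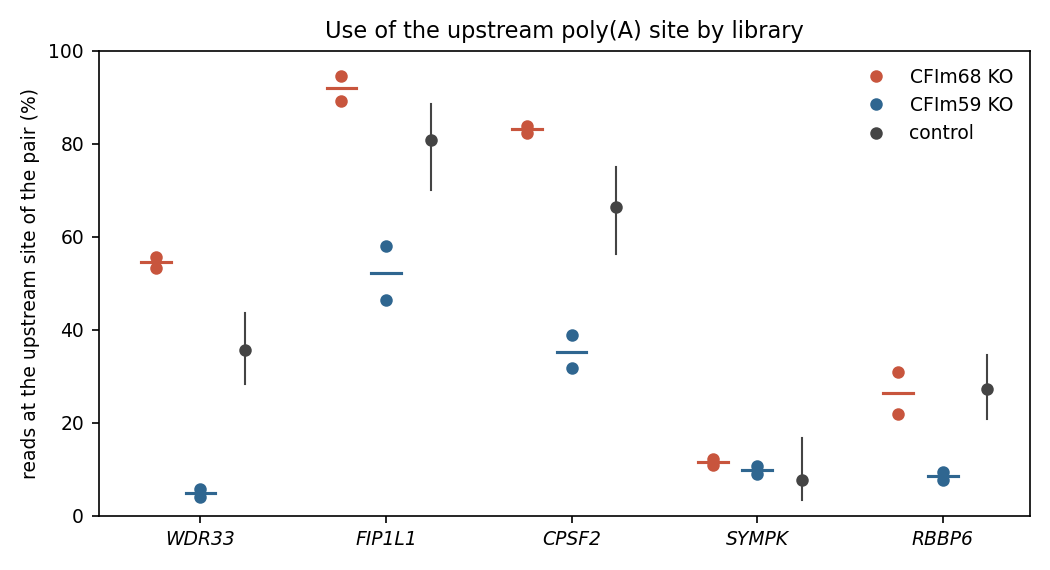
Share of the pair's reads at the upstream site (%, y axis) for 5 CPSF genes (x axis), 1 point per library, with a short line at the mean of 2 KO lines and, for the control, its Wilson 95% interval. WDR33, FIP1L1 and CPSF2 run from CFIm59 KO at the bottom through the control to CFIm68 KO at the top, RBBP6 is low in CFIm59 KO only, and SYMPK lies between 7.69% and 12.2% in every library.

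WDR33, which contacts the poly(A) signal, had the largest log2 change of the 5 between the knockouts and in CFIm59 KO against the control, though not in CFIm68 KO against the control. Its proximal site at chr2:128522048 lies 58545 nt upstream of the distal site at chr2:128463503, on the minus strand. The table assigned the proximal site to ENST00000409658, which encodes 326 amino acids, and the distal site to the transcript of 1336. The proximal site held 55.7% and 53.3% of the pair's reads in the CFIm68 KO lines, 5.75% and 4.10% in the CFIm59 KO lines and 35.6% in the control (Wilson 95% interval 28.3% to 43.5%). Each genotype stood apart, with the control between the knockouts. These shares rest on 201 and 122 reads in CFIm68 KO, 87 and 122 in CFIm59 KO and 149 in the control. The log2 ratio differed by 4.55 between CFIm68 KO and CFIm59 KO (standard error, SE, 0.45; adjusted p = 3.15e-13 by the same edgeR test, as for all adjusted p-values from here on). Against the control it fell by 3.42 in CFIm59 KO (SE 0.55, adjusted p = 1.97e-05) and rose by 1.12 in CFIm68 KO (SE 0.42, adjusted p = 0.0337).

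FIP1L1, the subunit CFIm contacts, moved over a shorter stretch. Its proximal site at chr4:54325783 goes with the end of ENST00000306932, shown above, and its distal site at chr4:54327603 lies 1820 nt further on the plus strand. The table classed the distal site as intronic, although it lies 575 nt past a last exon site of the same gene. The proximal site held 94.5% and 89.3% of the pair's reads in the CFIm68 KO lines, 46.3% and 58.0% in the CFIm59 KO lines and 80.9% in the control (Wilson 95% interval 70.0% to 88.5%). Both CFIm59 KO lines were below the control and both CFIm68 KO lines above it. Between the knockouts the log2 ratio rose by 3.38 in CFIm68 KO relative to CFIm59 KO (SE 0.54, adjusted p = 3.30e-07). It fell by 1.92 in CFIm59 KO against the control (SE 0.59, adjusted p = 0.0336), while the 1.46 of CFIm68 KO against the control missed the threshold (SE 0.72, adjusted p = 0.124). With last exon sites alone, the pair became the ends of ENST00000306932 and ENST00000337488, 51 nt apart, and no change of it was called in any comparison.

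CPSF2, the inactive relative of the endonuclease, had both sites of its pair in the same last exon, 2136 nt apart, at chr14:92628407 and chr14:92630543 on the plus strand. The table names 1 transcript for both, which encodes 782 amino acids. The proximal site held 83.9% and 82.4% of the pair's reads in the CFIm68 KO lines, 31.8% and 38.8% in the CFIm59 KO lines and 66.3% in the control (Wilson 95% interval 56.3% to 75.0%). Again the control lay between knockouts that did not overlap. The log2 ratio was 3.15 higher in CFIm68 KO than in CFIm59 KO (SE 0.45, adjusted p = 2.34e-08). Against the control it fell by 1.84 in CFIm59 KO (SE 0.53, adjusted p = 0.0222) and rose by 1.32 in CFIm68 KO (SE 0.50, adjusted p = 0.0390).

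SYMPK, the scaffold of the cleavage part, was the gene with a pair whose use was called in no comparison. Its pair was an intron site at chr19:46322166 and the last exon site at chr19:46318707, 3459 nt apart on the minus strand. The intron site held 12.2% and 10.9% of the pair's reads in the CFIm68 KO lines, 8.93% and 10.8% in the CFIm59 KO lines and 7.69% in the control (Wilson 95% interval 3.33% to 16.8%). All 4 KO values lay within the control's interval. The adjusted p was 0.603 in CFIm68 KO and 0.831 in CFIm59 KO, each against the control, and 0.781 between the knockouts. Only 5 to 10 reads per library stood at the intron site.

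RBBP6, the cleavage activator, was called in CFIm59 KO and between the knockouts. Like FIP1L1, it was not called in CFIm68 KO against the control. Its pair was chr16:24571109, at the end of ENST00000562683 shown above, and chr16:24584181, 13072 nt further on at the end of the transcript for 1792 amino acids. The upstream site held 21.8% and 30.9% of the pair's reads in the CFIm68 KO lines, 7.78% and 9.47% in the CFIm59 KO lines and 27.2% in the control (Wilson 95% interval 20.9% to 34.6%). The CFIm68 KO lines lay on either side of the control, and both CFIm59 KO lines were below all other libraries. The log2 ratio fell by 1.97 in CFIm59 KO against the control (SE 0.53, adjusted p = 0.0144) and was 1.88 higher in CFIm68 KO than in CFIm59 KO (SE 0.45, adjusted p = 0.00039). Against the control the CFIm68 KO value was -0.09 (SE 0.44, adjusted p = 0.917). When the most upstream site, an intron site at chr16:24551907, took the place of chr16:24571109, the sign in CFIm59 KO against the control turned to 1.13 (adjusted p = 0.368) and that between the knockouts to -0.75 (adjusted p = 0.238), and both calls were lost.

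The calls against the single control were less firm than those between the knockouts. With DESeq2, 1 of the 4 calls in CFIm59 KO (WDR33) and neither of the 2 in CFIm68 KO passed, whereas all 4 between the knockouts did. Without CFIm59 KO line 1 the CFIm59 KO count was 1 and without line 2 it was 2. Without CFIm68 KO line 1 the CFIm68 KO count was 0 and without line 2 it was 1.

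**Figure D2:**
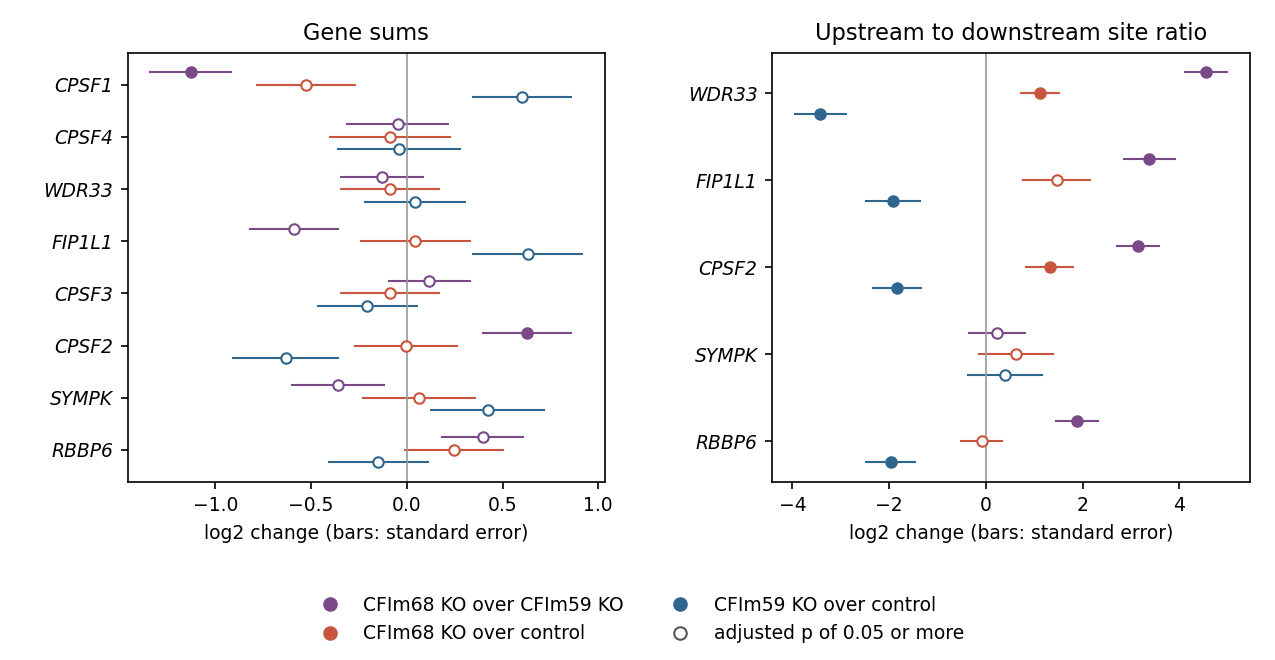
Log2 change (x axis) with its standard error, for summed reads (left) and for the ratio of upstream to downstream site reads (right), for each CPSF gene and comparison from 5 libraries. Filled points passed an adjusted p of 0.05. On the right, WDR33, FIP1L1, CPSF2 and RBBP6 stand between 1.88 and 4.55 for CFIm68 KO over CFIm59 KO, while on the left only CPSF1 and CPSF2 are filled, and only between the knockouts.

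CPSF1, CPSF3 and CPSF4 each ended almost wholly at 1 site, and no pair was tested for them. The CPSF1 site at chr8:145618446 held 98.0% to 99.0% of the gene's reads in every library. For CPSF3, the endonuclease, the last exon site at chr2:9613223 held 96.5% to 99.3%. The CPSF4 site at chr7:99054994 held 87.0% to 91.3%, and a second one 480 nt upstream held 9.09% and 8.16% in the CFIm68 KO lines, 6.52% and 0% in the CFIm59 KO lines and 1.45% in the control. In CFIm59 KO line 2 that share of 0 came from 56 reads, so that up to 5.36% is allowed. Such bounds and the Wilson intervals cover counting error only and leave out the spread between lines. With no molecular identifiers, they also treat each read as a separate molecule.

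Each site with 10 or more reads was next tested against the other sites of its gene, and here a log2 value is the site's change relative to all sites of the gene, which understates a change at a well used site. Of the 230 sites, 38 had that many reads and 37 were tested. The other 192 held 387 reads in all, 40 of them none. Between the knockouts 17 of 37 sites were called, 5 higher and 12 lower in CFIm68 KO, against 19.9% of all 37295 sites tested. These 17 were 6 of FIP1L1, 4 of CPSF2, 3 of WDR33, 3 of RBBP6 and 1 of CPSF3. Sites of 1 gene were tested against each other, so they are not independent results. Several with few reads reached the minimum of 10 only through the group in which they were high, which in part fixed their direction. Against the control, 1 site was called in CFIm68 KO (6.18% of all sites) and 1 in CFIm59 KO (0.273%). At an unadjusted p under 0.05 the counts were 23, 3 and 9. The median log2 change over the 37 sites was -0.08 between the knockouts, -0.12 in CFIm68 KO and 0.38 in CFIm59 KO, each against the control, and 0.01, 0.01 and 0.00064 over all sites.

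At WDR33 the site at chr2:128522048 had 112 and 65 reads in the CFIm68 KO lines, 5 and 5 in the CFIm59 KO lines and 53 in the control. Scaled for library size, no group overlapped another. It rose by 3.74 between CFIm68 KO and CFIm59 KO (adjusted p = 2.19e-10) and fell by 2.99 in CFIm59 KO against the control (adjusted p = 0.00104), the 1 site called in that comparison. Without CFIm59 KO line 2 that last call was lost (adjusted p = 0.0864). The site at chr2:128463503 had 30.9 and 25.3 CPM in the CFIm68 KO lines, 49.2 and 48.5 in the CFIm59 KO lines and 36.1 in the control. The genotypes lay on opposite sides of the control, and the site fell by 0.80 between CFIm68 KO and CFIm59 KO (adjusted p = 0.0422), a call that 2 of 7 alternatives kept (adjusted p up to 0.556). Another called site, chr2:128462862, had 2 and 0 reads in the CFIm68 KO lines, 8 and 6 in the CFIm59 KO lines and 6 in the control (adjusted p = 0.0149 between the knockouts, with the call kept in 3 of 6 alternatives). The site at chr2:128462862 reached 10 reads only through the CFIm59 KO lines, which in part fixed its direction. The annotated far ends of the transcripts for 257 and 1336 amino acids held few reads. At chr2:128492994, for 257 amino acids, there were 7 and 4 reads in the CFIm68 KO lines, 5 and 19 in the CFIm59 KO lines and 10 in the control. The end for 1336 amino acids at chr2:128458606 had 9 and 3, then 12 and 13, and 8 in the control, and neither site was called (adjusted p between the knockouts 0.0919 and 0.0867). The well used site chr2:128463503 lies 4897 nt upstream of that end.

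FIP1L1 had 6 of 7 tested sites called between the knockouts. Its first site, chr4:54325783, had 69 and 50 reads in the CFIm68 KO lines, 25 and 40 in the CFIm59 KO lines and 55 in the control, and rose by 1.18 in CFIm68 KO relative to CFIm59 KO (adjusted p = 0.00639). The second, chr4:54325834, had 9 and 10, then 5 and 3, and 5 reads in the control (adjusted p = 0.0975). All 5 sites downstream of these were lower in CFIm68 KO. The main one, chr4:54327603, had 4 and 6 reads in the CFIm68 KO lines, 29 and 29 in the CFIm59 KO lines and 13 in the control, and fell by 2.21 (adjusted p = 0.00082). At the other 4 sites both CFIm68 KO lines had no read. These 4 sites reached the minimum of 10 reads only through the CFIm59 KO lines, where they were high. Their direction was thus fixed in part by the choice of sites, and their calls are no separate support. The last exon site chr4:54327028, at the end of ENST00000504094 shown above, had 6 and 11 reads in the CFIm59 KO lines and 1 in the control. Its CFIm59 KO mean was 3.44-fold the level that a floor of 3 reads per library gives in CFIm68 KO. For the 3 sites beyond chr4:54327603 this ratio was 1.98-fold to 2.80-fold. These ratios leave out the counting error of the CFIm59 KO reads, so they are not lower bounds. The CFIm59 KO lines had 9 and 3 reads at chr4:54328749, 3 and 7 at chr4:54328854, and 5 and 6 at chr4:54328997. The control had 2, 1 and 0 there. Of 6 alternatives, 4 kept the call at chr4:54328749, 2 at chr4:54328854 and 3 at chr4:54328997, and 4 of 7 kept it at chr4:54325783. Together the 5 sites held 3.85% and 7.41% of the gene's reads in the CFIm68 KO lines, 51.5% and 47.9% in the CFIm59 KO lines and 18.3% in the control. As 4 of these 5 sites passed the minimum only through CFIm59 KO, the size of this contrast was also fixed in part by that choice. The pooled shares are thus no separate support.

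**Figure D3:**
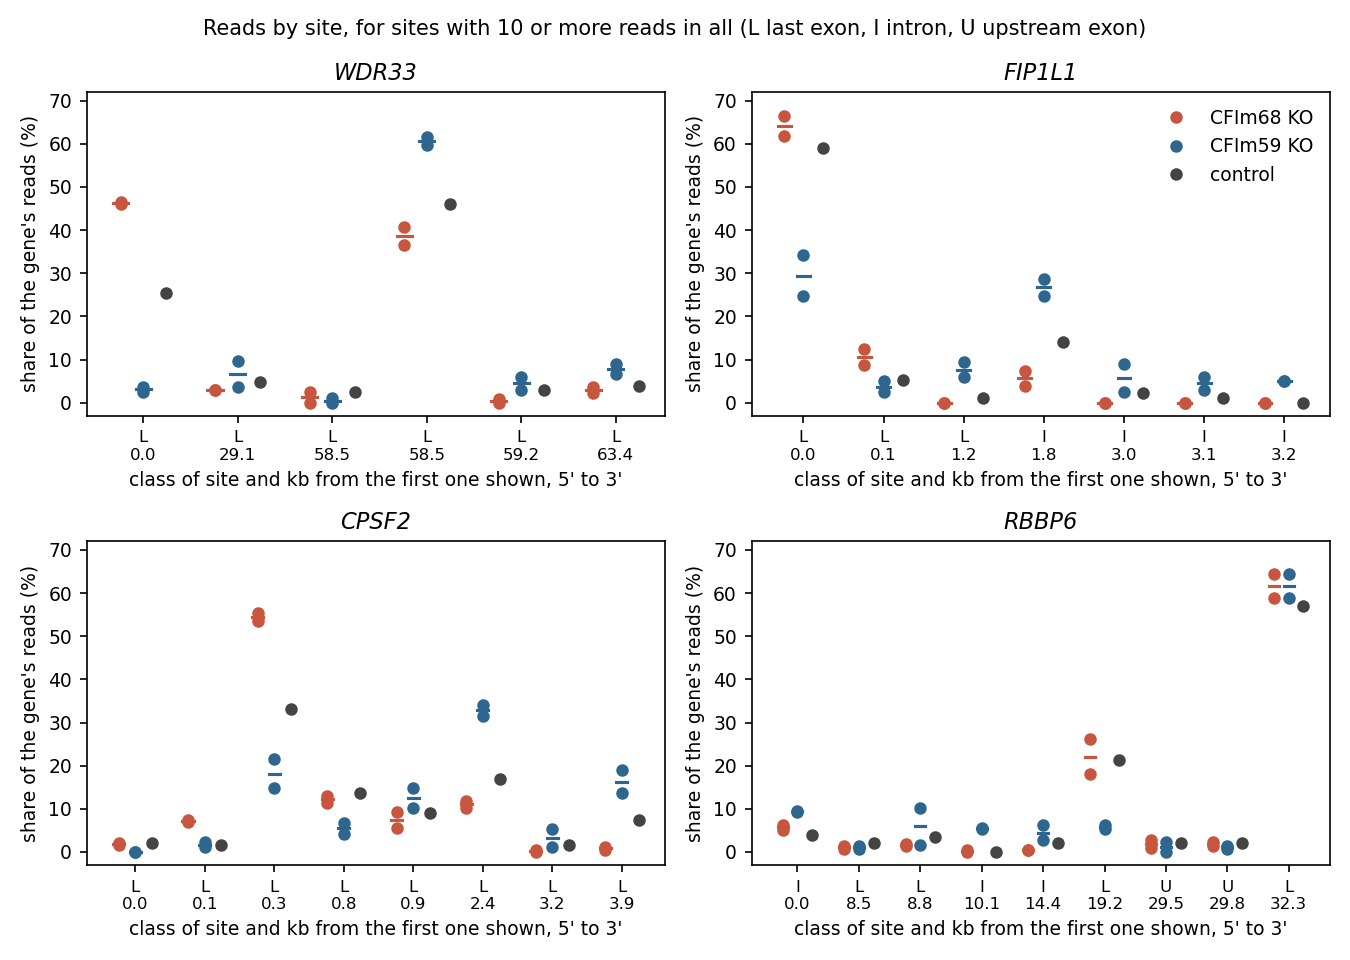
Share of each gene's reads (%, y axis) at every site with 10 or more reads, in 5′ to 3′ order (x axis, with the site's class and its distance from the first site shown), 1 point per library and a line at the mean of 2 KO lines. In WDR33, FIP1L1 and CPSF2 the CFIm68 KO points are above the CFIm59 KO points at the upstream site of the pair and below them at its downstream site and at the last site shown. The last FIP1L1 site shown reached 10 reads only through CFIm59 KO. At the last RBBP6 site the groups lie between 56.9% and 64.5%.

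CPSF2 spread its reads over 8 tested sites of the last exon, and 4 were called between the knockouts. The site with most reads, chr14:92628407, had 34.4 and 43.5 CPM in the CFIm68 KO lines, 8.41 and 7.87 in the CFIm59 KO lines and 23.7 in the control, and rose by 1.54 in CFIm68 KO relative to CFIm59 KO (adjusted p = 0.000552, and 0.0539 without CFIm59 KO line 1). The next main site, chr14:92630543, had 6.60 and 9.32 CPM in the CFIm68 KO lines, 18.0 and 12.4 in the CFIm59 KO lines and 12.0 in the control, and fell by 1.63 (adjusted p = 0.00114). At both sites the control lay between the knockouts. The last site, chr14:92632066, 3659 nt downstream of the site with most reads, had 1 and 2 reads in the CFIm68 KO lines, 18 and 12 in the CFIm59 KO lines and 14 in the control. It was the 1 site that differed between CFIm68 KO and the control (lower, adjusted p = 0.00878, with the call kept in 3 of 5 alternatives), and it was also lower in CFIm68 KO than in CFIm59 KO (adjusted p = 1.21e-06). The fourth, chr14:92631369, rested on 10 reads in all, and its call (adjusted p = 0.0408) was lost in 5 of 6 alternatives. Without the CFIm59 KO lines, where it was high, that site would not have reached 10 reads.

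RBBP6 had 3 of 9 tested sites called between the knockouts. The site at the end of ENST00000562683, chr16:24571109, had 16.0 and 24.0 CPM in the CFIm68 KO lines, 4.20 and 3.73 in the CFIm59 KO lines and 16.2 in the control, and rose by 1.91 in CFIm68 KO relative to CFIm59 KO (adjusted p = 0.000666). The control stood with CFIm68 KO here. An intron site at chr16:24561977 had 1 and 0 reads in the CFIm68 KO lines, 7 and 8 in the CFIm59 KO lines and 0 in the control, and another at chr16:24566259 had 1 and 1, then 8 and 4, and 4 in the control. Both were lower in CFIm68 KO (adjusted p = 0.000843 and 0.00996), and 3 of 6 alternatives kept the call at chr16:24566259. The full-length end, chr16:24584181, held 64.5% and 58.7% of RBBP6 reads in the CFIm68 KO lines, 64.3% and 58.9% in the CFIm59 KO lines and 56.9% in the control, and the groups overlapped (adjusted p = 0.999 between the knockouts). The end of the 118 amino acid form, chr16:24560721, had 5 and 3 reads in the CFIm68 KO lines, 2 and 15 in the CFIm59 KO lines and 7 in the control. The CFIm59 KO lines disagreed there, and the site was not called (adjusted p = 0.0539 between the knockouts).

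CPSF3 had 1 called site, an intron site at chr2:9608278 with 4 and 4 reads in the CFIm68 KO lines, 0 and 0 in the CFIm59 KO lines and 2 in the control (adjusted p = 0.0356 between the knockouts). Its 10 reads lay near the floor of 3 reads per library, and the call was lost in 5 of 6 alternatives. Without the CFIm68 KO lines, where it was high, the site would not have reached 10 reads. No site of CPSF4 or SYMPK was called. The CPSF1 site could not be set against others, since no second one reached 10 reads. Over all members, 17 of 37 sites were called between the knockouts with the minimum of 10 reads (19.9% of all sites). The lowest count over other minimums was 7, at a minimum of 50 reads. That minimum left fewer sites to test, so the counts of 7 and 17 do not compare as shares.

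Summed over all sites, the reads of 2 CPSF genes differed between the knockouts, and none passed the test against the control. None of the 8 genes was called in CFIm68 KO, where 3.61% of all 14636 genes were, or in CFIm59 KO, where 13.9% were. At an unadjusted p under 0.05 there were 1 and 3 genes, and DESeq2 also called 0 in both. The 3 in CFIm59 KO were CPSF1 (log2 0.60), FIP1L1 (0.63) and CPSF2 (-0.63). Between the knockouts 2 of 8 were called, CPSF1 lower and CPSF2 higher in CFIm68 KO, against 19.7% of all genes. The median log2 change over the 8 genes was -0.09 between the knockouts, -0.05 in CFIm68 KO and 0.00077 in CFIm59 KO against the control, and 0.0014, 0.02 and 0.02 over all genes tested. In RNA from whole cultures, fewer cells that express a gene and less RNA per cell cannot be told apart.

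CPSF1, the scaffold of the signal reading part, had 51.1 and 52.4 CPM in the CFIm68 KO lines, 105 and 121 in the CFIm59 KO lines and 74.4 in the control. The genotypes did not overlap and the control lay between them. CPSF1 averaged 51.7 ± 0.918 CPM in CFIm68 KO and 113 ± 10.9 in CFIm59 KO (SD, n = 2 each), a log2 difference of -1.13 (SE 0.22, adjusted p = 9.77e-05). This call held in all 8 alternatives. Against the control the log2 values of -0.53 in CFIm68 KO and 0.60 in CFIm59 KO missed the threshold (adjusted p = 0.288 and 0.119).

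CPSF2 had 64.3 and 78.6 CPM in the CFIm68 KO lines, 57.0 and 36.5 in the CFIm59 KO lines and 71.4 in the control. Both CFIm59 KO lines were below the other 3 libraries. The log2 difference between CFIm68 KO and CFIm59 KO was 0.63 (SE 0.23, adjusted p = 0.0493). That p lay at the threshold, and 4 of 8 alternatives lost the call, among them DESeq2 (adjusted p = 0.320), RLE scaling (0.0529) and the fit without CFIm59 KO line 2 (0.568).

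FIP1L1 had 36.1 and 36.0 CPM in the CFIm68 KO lines, 60.6 and 48.5 in the CFIm59 KO lines and 35.0 in the control. Both CFIm59 KO lines were above the other libraries, but the difference between the knockouts missed the threshold (log2 -0.59, SE 0.23, adjusted p = 0.0694). SYMPK, with 30.6 and 32.4 CPM in the CFIm68 KO lines, 37.2 and 43.1 in the CFIm59 KO lines and 30.1 in the control, had the same order of groups (adjusted p = 0.322 between the knockouts).
RBBP6 had 89.0 and 91.4 CPM in the CFIm68 KO lines, 77.5 and 60.5 in the CFIm59 KO lines and 75.9 in the control. The log2 difference of 0.40 between the knockouts was not called (SE 0.22, adjusted p = 0.206). The remaining genes, CPSF3, CPSF4 and WDR33, overlapped between the knockouts or differed by less than 10 CPM in their means. WDR33 had 84.4 and 62.1 CPM in the CFIm68 KO lines, 79.9 and 81.2 in the CFIm59 KO lines and 78.2 in the control. Its summed reads were thus not called (log2 -0.13, adjusted p = 0.729 between the knockouts) where its site ratio was.

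**Figure D4:**
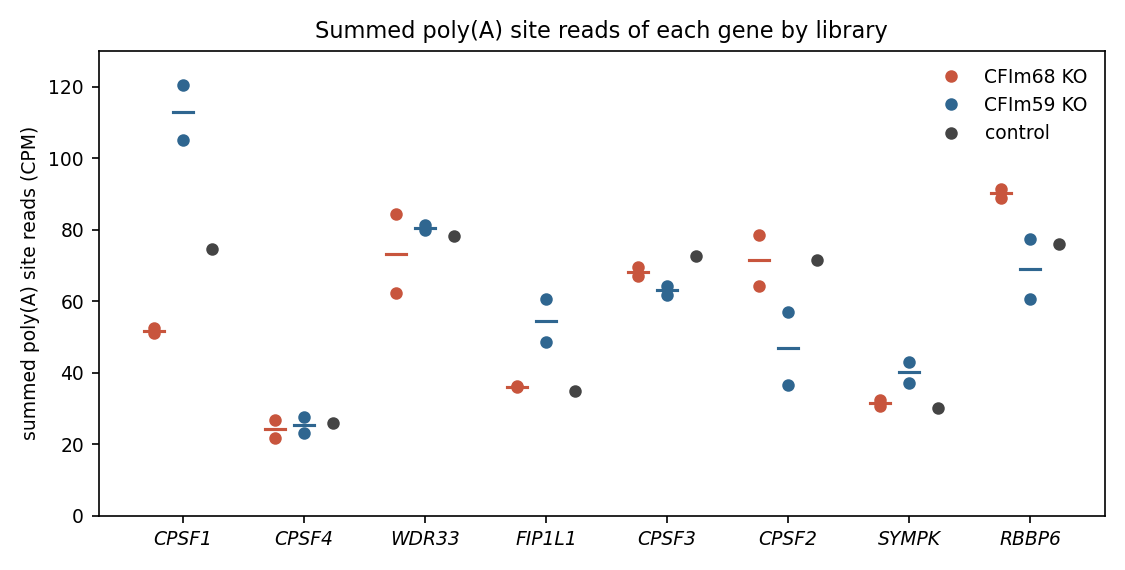
Summed poly(A) site reads in CPM (y axis) of the 8 CPSF genes (x axis), 1 point per library, with a line at the mean of 2 KO lines. CPSF1 stands at 51.1 and 52.4 CPM in CFIm68 KO and at 105 and 121 CPM in CFIm59 KO. CPSF2, also called, stands at 64.3 and 78.6 CPM against 57.0 and 36.5 CPM. CPSF4 and WDR33 overlap between the knockouts. CPSF3, FIP1L1, SYMPK and RBBP6 do not overlap but were not called. The share of all genes that do not overlap was not counted, so this is no result about these genes.

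Sites in introns and upstream exons were set against last exon sites as classes. The upstream pair sites of WDR33 and RBBP6 are last exon sites of other transcripts. They counted as last exon reads, so this test could not see early ends there. All 8 genes entered this test. FIP1L1 was the 1 gene called, and only between the knockouts, against 5.66% of 6415 genes tested. No CPSF gene was called in CFIm68 KO (0.889% of all genes) or CFIm59 KO (0.577%) against the control by edgeR or DESeq2, and the counts at an unadjusted p under 0.05 were 0 and 1. The median log2 change over the 8 genes was -0.07 between the knockouts, -0.23 in CFIm68 KO and -0.17 in CFIm59 KO, and -0.10, 0.09 and 0.19 over all genes. For FIP1L1, intron sites held 26 of 104 and 19 of 81 reads in the CFIm68 KO lines, 65 of 101 and 62 of 117 in the CFIm59 KO lines and 32 of 93 in the control, and the log2 ratio of intron to last exon reads was 2.13 lower in CFIm68 KO than in CFIm59 KO (SE 0.42, adjusted p = 4.76e-05). Most of these reads lay past the last exon sites, not within the gene's body. When sites downstream of all last exon sites were counted with the last exon, an alternative chosen after seeing the data, the sign turned and the call was lost (log2 0.72, adjusted p = 0.731). DESeq2 did not call it either, and the other 7 of 9 alternatives kept it. The table also placed 42 FIP1L1 sites more than 5 kb beyond the distal one, with 60 reads in all, or 13.5% and 12.3% of the gene's reads in the CFIm68 KO lines, 14.9% and 8.55% in the CFIm59 KO lines and 11.8% in the control. They ran as far as chr4:55133138, and 10 FIP1L1 sites were also listed under another gene. Their reads counted in the intron class and the summed reads of FIP1L1. Whether they came from FIP1L1 RNA was not tested.

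Among the other genes, RBBP6 had the next clearest split between these classes. Intron and upstream exon sites held 12.5% and 10.7% of its reads in the CFIm68 KO lines, 26.4% and 19.9% in the CFIm59 KO lines and 12.9% in the control. The control stood with CFIm68 KO, and the difference between the knockouts missed the threshold (log2 -1.18, SE 0.42, adjusted p = 0.0776). With intron sites alone it passed (log2 -1.69, adjusted p = 0.00671), which was 1 of 9 alternatives, and the highest adjusted p was 0.707 with DESeq2. SYMPK held 17.7% to 26.1% of reads at such sites, WDR33 6.58% to 11.7%, CPSF4 2.04% to 8.93%, and CPSF1, CPSF2 and CPSF3 at most 4.21%. The WDR33 share leaves out chr2:128522048, which is classed as last exon. That site held 46.1% and 46.4% of WDR33 reads in the CFIm68 KO lines, 3.76% and 2.55% in the CFIm59 KO lines and 25.5% in the control.

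Other genes of the machinery were read from a list of 15 cleavage and polyadenylation genes, of which 12 had a site pair. Between the knockouts 6 of 12 used the proximal site more in CFIm68 KO, where 40.7% of all genes tested did, and 1 used it less. The largest were CSTF2 (log2 3.52), PCF11 (2.90), NUDT21 (2.84) and PAPOLA (2.56). CSTF2, the CstF subunit that binds downstream of the cut, used its proximal site in 93.3% and 95.6% of the pair's reads in the CFIm68 KO lines, 51.4% and 63.4% in the CFIm59 KO lines and 85.2% in the control, an order of groups like that of FIP1L1. Against the control, 4 of 12 turned to the proximal site in CFIm68 KO (25.3% of all genes did) and 0 to the distal one. They were PCF11 (log2 2.33), NUDT21 (2.23), CSTF2 (1.51) and PPP1CB, whose proximal site held 91.0% and 89.8% of the pair's reads in the CFIm68 KO lines and 70.3% in the control. In CFIm59 KO, 2 turned to the distal site (CSTF2 and PAPOLA), as 5.38% of all genes did, and 1 to the proximal one (SSU72, 2.12). In summed reads, 3 of 15 were higher in CFIm68 KO than in CFIm59 KO (CPSF7, log2 1.42, CSTF2, 0.90, and NUDT21, 0.88) and 1 was lower (CPSF6, -1.60), where 19.7% of all genes were called in either direction. Against the control, 3 of 15 were called in CFIm68 KO (CPSF7, CPSF6 and PAPOLA, against 3.61% of all genes) and 3 in CFIm59 KO (CSTF2, PAPOLA and CSTF2T, against 13.9%). CPSF6 is the gene knocked out in the CFIm68 KO lines. Its calls there and between the knockouts check the edit and are no separate result in these counts. CPSF7 itself was higher in CFIm68 KO than in the control, with 128 and 204 CPM against 59.8 CPM (log2 1.47, adjusted p = 0.000925), and PAPOLA, the poly(A) polymerase, was lower in both knockouts than in the control (log2 -0.90 in each, adjusted p = 0.0178 in CFIm68 KO and 0.00601 in CFIm59 KO). CSTF2 was lower (log2 -1.30, adjusted p = 0.000645) and CSTF2T higher (0.84, adjusted p = 0.0498) in CFIm59 KO than in the control. Of the Integrator genes related to CPSF, CPSF3L (INTS11), the relative of CPSF3, used its proximal site less in CFIm68 KO than in CFIm59 KO (log2 -1.15, adjusted p = 0.0151), and INTS4 gave more reads (log2 0.80, adjusted p = 0.0217). INTS9 was not called.

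For each gene called in the pair test, the genes most like it were those nearest in the share of the proximal site over the 5 libraries, by Euclidean distance in percentage points. They were ATL3, RSPH3 and PCGF3 for WDR33, at 9.51, 10.0 and 11.3 points, and SMC6, ATF7IP2 and TOX4 for FIP1L1, at 8.35, 8.92 and 10.0 points. For CPSF2 they were ARL1, AGFG1 and RRM2, at 8.01, 9.08 and 9.17 points. KMT2A, PEA15 and CALCOCO2 were nearest to RBBP6, at 6.17, 7.78 and 7.85 points. ARL1, for example, used its proximal site in 80.1% and 86.5% of reads in the CFIm68 KO lines, 32.6% and 44.4% in the CFIm59 KO lines and 65.8% in the control.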

How the data were processed

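Poly(A) sites were sequenced from total RNA of 5 HEK293T libraries by PAS-seq, in which each read marks the place where a poly(A) tail was added. The authors deposited 1 unnormalised count of reads for each site in each library, per the file headers, and 0 columns lacked a sample. Per the submitters' processing notes, TopHat2 2.1.0, deepTools 2.4 and the hg19 genome were used, with no role stated. The calling of sites, the handling of internal priming and whether positions count from 0 or 1 are not stated in the sources used here. The table repeated 17824 listings under other genes or classes, all with 0 reads, so the reads of a site shared by overlapping genes stand under 1 gene.

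Reads were summed per gene, per site class and per site, and fitted in R 4.3.3 with the edgeR 4.0.16 quasi-likelihood test. All 5 libraries entered each fit with 1 spread per gene. TMM scaling and filterByExpr left 14636 genes for sums. Pairs averaged at least 20 reads per library with 5 at each site (5869 genes). Classes averaged at least 20 reads per library with 2 in each class (6415 genes). Single sites with 10 or more reads were tested with diffSpliceDGE (37295 sites). The p-values were 2-sided and adjusted over every feature tested, with a threshold of 0.05. Standard errors were the absolute log2 value divided by the square root of F. Intervals of shares are Wilson 95% intervals, and floors are 3 reads. Each fit was tested on simulated data. The line numbers of the knockouts did not pair them, since the correlation of same-numbered deviations was -0.0213. Alternatives were DESeq2 1.42.0, RLE scaling, other minimums of reads, other sites or classes, a block for line number and leaving out each KO line.

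The genes, lists and tests were chosen with earlier results of these data known. Sites were named when among the gene's 2 sites with most reads or called in any comparison. Sites at transcript ends (chr4:54325834, chr2:128492994, chr2:128458606 and chr16:24560721) were added after their values were seen. Of other factors, up to 4 with the largest log2 change among those called were named per comparison, and CPSF6 and CPSF7 as the edited genes. Sequences and coding lengths are from GENCODE v29 transcripts on GRCh38. No protein sequence was used here, and the sequences of other transcript ends are not reported here.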

Additional observations from a re-analysis of the deposited data

Results flagged for a closer look

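The effects of the knockouts against the shared control differed from each other, by the test of that difference, in 7 results. Site pair use was higher toward the proximal site in CFIm68 KO than in CFIm59 KO by log2 4.55 for WDR33, 3.38 for FIP1L1, 3.15 for CPSF2 and 1.88 for RBBP6. The log2 ratio of intron to last exon reads of FIP1L1 was -2.13, lower in CFIm68 KO, and this value turned its sign once the sites past the last exon sites were counted with them. Summed reads differed by log2 -1.13 for CPSF1 (lower in CFIm68 KO) and by 0.63 for CPSF2 (higher in CFIm68 KO). Each genotype had 2 lines, and no group was large enough for a search for single libraries that stand apart.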

How the results depend on the processing

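Leaving out 1 KO line at a time gave these lowest and highest counts of called CPSF genes or sites, in the order CFIm68 KO against control, CFIm59 KO against control, CFIm68 KO against CFIm59 KO. Summed reads had 0 to 0, 0 to 1 and 1 to 2 genes. Site pairs had 0 to 2, 1 to 4 and 4 to 4 genes. Single sites had 0 to 1, 0 to 1 and 9 to 14. Classes had 0 to 0, 0 to 0 and 1 to 1 genes. The 1 gene in summed reads of CFIm59 KO against control was CPSF2, without CFIm59 KO line 1. The values that changed sign across these fits ran from -0.379 to 0.073 for summed WDR33 reads between the knockouts and from -0.42 to 0.25 for the RBBP6 pair in CFIm68 KO against control. Between the knockouts, chr16:24560721 of RBBP6 ran from -2.55 to 0.13 and chr16:24584181 from -0.083 to 0.066.

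DESeq2 called 1 gene in summed reads between the knockouts, 0 pairs in CFIm68 KO and 1 in CFIm59 KO against control, and 0 classes between the knockouts. RLE scaling gave 1 gene in summed reads between the knockouts. With no minimum of reads, pairs against control numbered 0 in CFIm68 KO and 1 in CFIm59 KO, and single sites 0 in CFIm68 KO against control and 9 between the knockouts. Minimums of 100 and 20 reads gave 1, 2 and 2 pairs in the same order of comparisons, with only WDR33 and RBBP6 left to test. A minimum of 50 reads gave 0, 2 and 7 single sites, with fewer sites left to test. When the outermost sites formed the pair, the counts were 0, 2 and 2, and the RBBP6 values turned to 0.38, 1.13 and -0.75. With last exon sites alone, FIP1L1 turned to -0.80 in CFIm68 KO against control and -0.35 between the knockouts. Intron sites alone gave 2 classes between the knockouts. Counting sites past the last exon sites with them, an alternative chosen after seeing the data, gave 0, and the FIP1L1 value was 0.72. The cause of these changes was not tested, beyond the smaller numbers of genes or lines.

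The replicate block for line number, whose pairing the labels do not give, called 3 genes in summed reads between the knockouts (FIP1L1 added, adjusted p = 0.0418), 4 pairs, 16 sites and 1 class. Of the called values the text reports, 164 alternatives kept direction and call, 63 kept direction only and 4 turned the sign. Of the others, 150 kept both, 4 became called and 7 turned the sign.

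Over all features, DESeq2 called fewer genes in summed reads (58, 579 and 1044, in the same order), fewer pairs against control (848 and 20) and fewer classes (2, 1 and 41). The edgeR counts were 529, 2028 and 2888 for sums, 1667, 376 and 2754 for pairs, 2303, 102 and 7434 for sites, and 57, 37 and 363 for classes. Other minimums gave as few as 603, 162 and 900 pairs, and 972, 43 and 3855 sites. Without 1 KO line the lowest counts in CFIm59 KO against control were 1318 sums, 164 pairs, 31 sites and 10 classes. In CFIm68 KO against control they were 1216 sites and 35 classes, and between the knockouts 1632 sums, 3898 sites and 102 classes.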
